A study of Mus musculus with 12 samples.

Results

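The genes described here carry out and police the physical division of a cell: the spindle assembly checkpoint, the kinases that start mitosis and end it, the chromosomal passenger complex, the centromere and kinetochore, the spindle motors, the proteins of cytokinesis and the factors that compact chromosomes. The members were 49 genes named by symbol for these roles, by a rule that uses no measured value, though the roles were picked with earlier results of these data known. Of these, 48 had a transcript cluster (the array's unit of measurement for a transcript) annotated with their symbol alone, out of 22180 genes measured in this way. Ncapg, a condensin subunit, was left out because its cluster is shared with another gene. Aurkc and Knstrn had more than 1 cluster, and the cluster with the highest mean over the arrays was used.

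RNA came from whole testes of C57BL/6N mice aged 2 weeks and was hybridised to Affymetrix whole-transcript arrays, with 1 array for each of 12 testes. Sox3-KO mice (KO) carry a CRISPR/Cas9 knockout of the X-linked SoxB1 transcription factor gene Sox3, and in Sox3-Sox2KI mice (KI), made with the same technology, its relative Sox2 is knocked in at Sox3. There were 3 KO testes, 3 KI testes, 3 WT littermates of KI mice (WT 1 to WT 3) and 3 WT littermates of KO mice (WT 4 to WT 6). The sources used here do not give the number of founder lines or say whether each edited allele was present in every testicular cell type. The labels call the samples biological replicates.

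At the onset of mitosis Cdk1, Plk1 and Aurora kinases drive chromosome condensation and spindle assembly. Kinetochores built on centromeric chromatin capture microtubules, and unattached kinetochores send a signal through Ttk, Bub1, Bub1b, Bub3 and Mad2l1 that restrains Cdc20, the activator of the anaphase-promoting complex (APC/C). Once that restraint is lifted, securin is destroyed, separase opens the cohesin rings and the central spindle directs the cleavage furrow. In the juvenile testis these genes are used by dividing spermatogonia and by somatic cells that still proliferate, and many of their transcripts are also present in spermatocytes, which prepare for the meiotic divisions.

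The median log2 value of an array ran from 5.74 to 5.82. RMA, among the tools the submitters name, brings arrays to a common distribution, so close medians do not show like quality. The correlation was at least 0.978 for any pair of arrays, and lowest for WT 5 with KO 3. The mean over all 22180 genes was 6.43 on KO 3 and between 6.35 and 6.37 on every other array. Why KO 3 stood apart was not tested. The targeted gene, Sox3, had a mean of 7.28 over the WT arrays (SD 0.06, n = 6). Its mean was 6.61 over the KO arrays (SD 0.04, n = 3) and 6.99 over the KI arrays (SD 0.26, n = 3), and the fall in KO testes passed the test (limma adjusted p = 0.0161). The KI difference of -0.30 did not pass (limma adjusted p = 0.945). KI 1, at 7.26, lay inside the WT range of 7.21 to 7.36, while KI 2 and KI 3, at 6.75 and 6.95, lay below it. Olfactory receptor genes, which are silent in most tissues, gave a background limit of 5.33 (the 95th percentile of their levels). All 48 members had a mean level above it. Sox3 also stayed above it on the KO arrays, at 6.57 to 6.65. Markers of Sertoli cells, Leydig cells and spermatocytes were above the limit, all of those measured, as a testis would show, while 6 of 9 spermatid markers were below it.

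Cell division genes were lower in KO testes. The test was passed by 17 of the 48 members, all of which fell, and missed by 31 (limma, Benjamini-Hochberg adjusted p under 0.05 over 22180 genes), where 2.34% of all genes fell and 2.52% rose. The falls were modest, from 1.2-fold for Kif20b, a kinesin of the central spindle, to 1.59-fold for Smc4, the ATPase of condensin. The median difference of the 48 members was -0.23 on the log2 scale, beside 0.04 over all genes. Of the members, 44 had a difference below 0, as 40.2% of all genes did. At an unadjusted p under 0.05, 32 members were lower (9.82% of all genes) and none was higher (14.4%). All 3 KO arrays lay below all 6 WT arrays for 27 members, beside 4.59% of all genes, and above them for none, beside 6.87%. The counts by role below stand beside the 2.34% of all genes that fell and the 4.59% with all KO arrays below all WT arrays. In bulk tissue, a smaller share of cells that hold these transcripts and less of them per cell cannot be told apart.

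How many members passed depended on single arrays. With WT 1, WT 2, WT 3, WT 5, KO 1 or KO 3 left out, 0 members passed, and without KI 3, which enters through the shared estimate of the spread, 10 passed. In those 6 fits the median difference of the 17 genes lay between -0.48 and -0.41 (-0.46 with all arrays), their adjusted p between 0.0562 and 0.171, and at most 16 genes fell among all those tested.

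**Figure D1:**
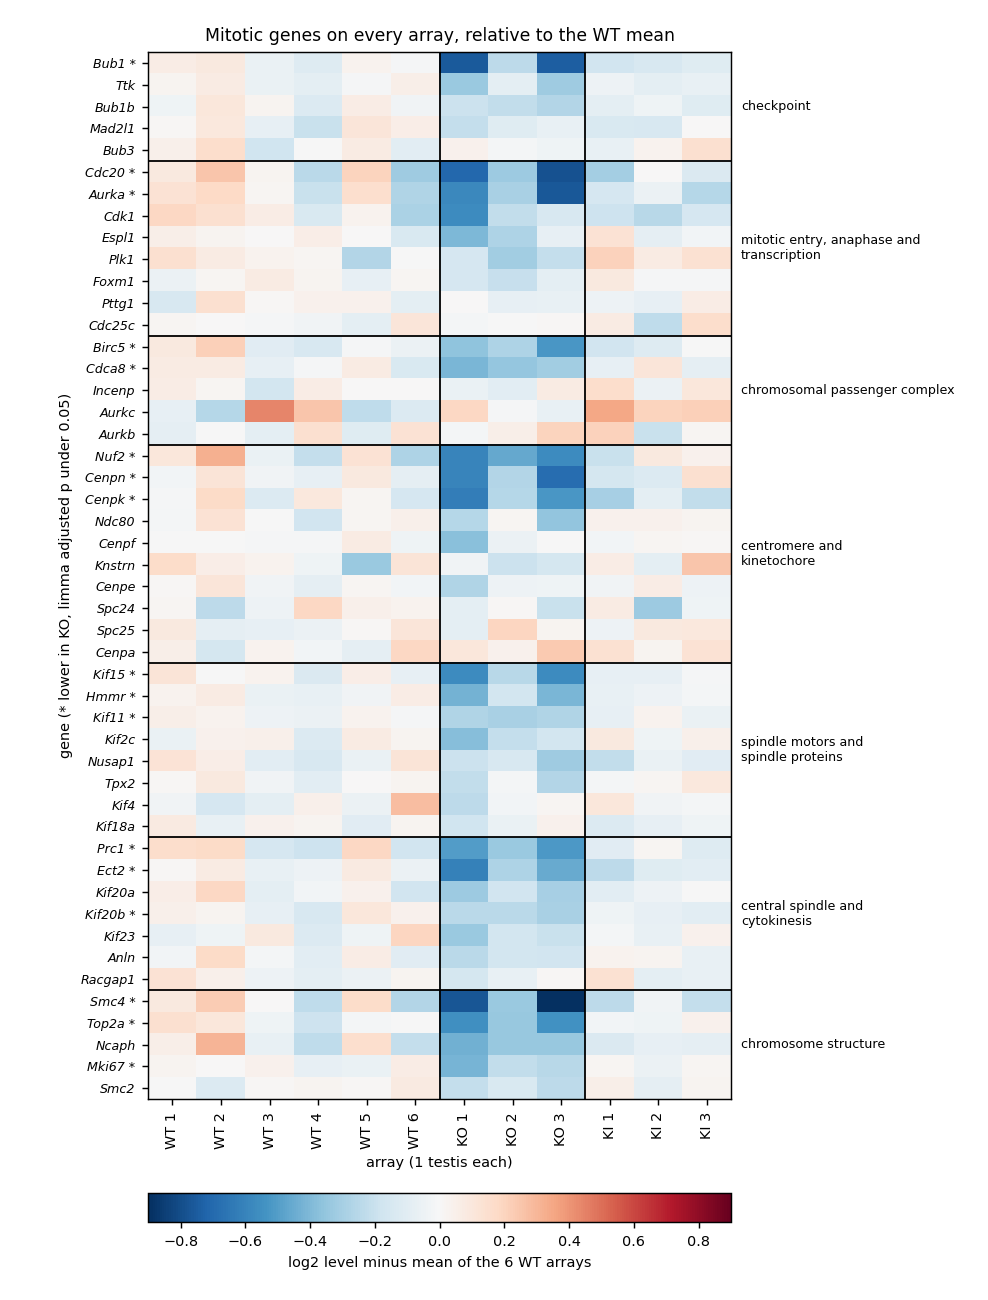
Log2 level of 48 mitotic genes (rows, grouped by role) on each of 12 arrays (columns), minus the mean of the 6 WT arrays; asterisks mark the 17 genes lower in KO testes. The KO columns are blue for most rows, most deeply in KO 1 and KO 3, while a few rows such as Bub3, Aurkb, Cenpa and Spc25 show no such shift.

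In the spindle assembly checkpoint, Bub1 fell and the other 4 members did not pass. Bub1, a kinase that recruits checkpoint proteins to kinetochores, ranged from 9.71 to 9.92 with a median of 9.84 in WT, was 9.08, 9.60 and 9.09 in KO 1, KO 2 and KO 3, and 9.66, 9.69 and 9.72 in KI 1, KI 2 and KI 3. Each KO array was below every WT and KI array, with KO 2 nearest to them. The means were 9.83 ± 0.08 for WT (SD, n = 6) and 9.25 ± 0.30 for KO (SD, n = 3), a 1.49-fold fall (log2 difference -0.58, SE 0.10, adjusted p = 0.0295). Bub1b, which binds Cdc20 as part of the inhibitory complex, was 7.99 to 8.21 (median 8.11) in WT, 7.92, 7.89 and 7.85 in the KO arrays, and 8.02, 8.07 and 8.00 in the KI arrays. Its KO and WT values did not overlap, and its difference of -0.23 missed the threshold (adjusted p = 0.0581). Ttk, the kinase at the top of the pathway, showed a like separation (difference -0.25, adjusted p = 0.0598). Bub3, the partner protein of Bub1 and Bub1b, was 9.60 to 9.93 (median 9.80) in WT, 9.82, 9.76 and 9.74 in KO, and 9.71, 9.81 and 9.92 in KI testes. All KO and KI values of Bub3 lay inside the WT range, and the 95% interval of its KO difference ran from -0.18 to 0.17. Mad2l1, the soluble inhibitor of Cdc20, differed by -0.13 (adjusted p = 0.347).

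Among the 8 genes of mitotic entry, anaphase and transcription, Cdc20 and Aurka fell. Cdc20 was 9.09 to 9.66 (median 9.46) in WT, 8.69, 9.08 and 8.62 in KO 1 to KO 3, and 9.10, 9.41 and 9.28 in KI 1 to KI 3. KO 2 fell short of the lowest WT array, WT 6, by a narrow margin, while KO 1 and KO 3 were far below. The fitted fall was 1.52-fold (-0.61, SE 0.14, adjusted p = 0.0367). Aurka, the Aurora kinase of centrosomes and spindle poles, was 8.21 to 8.66 (median 8.56) in WT, 7.90, 8.19 and 7.72 in KO, and 8.33, 8.43 and 8.23 in KI testes. KO 3 was again the lowest and KO 2 the highest KO array, and the fall was 1.46-fold (-0.55, SE 0.12, adjusted p = 0.0353). Espl1, or separase, the protease that cleaves cohesin, was 8.27 to 8.47 (median 8.42) in WT, 8.00, 8.13 and 8.34 in KO, and 8.54, 8.33 and 8.39 in KI testes. KO 3 overlapped the WT range, and the difference of -0.25 did not pass (adjusted p = 0.0902). Plk1, the Polo kinase, was 8.45 to 8.86 (median 8.74) in WT, 8.56, 8.40 and 8.50 in KO, and 8.93, 8.79 and 8.85 in KI testes, so that the KO arrays overlapped WT only through the low value of WT 5. Its difference was -0.23 (adjusted p = 0.128). Cdk1, the kinase of mitotic entry, differed by -0.31 (adjusted p = 0.122), with a wide WT spread (8.00 ± 0.18, SD, n = 6). Foxm1, a transcription factor of G2 and M phase genes, differed by -0.15, with all 3 KO arrays below WT (adjusted p = 0.161). Securin (Pttg1) and Cdc25c, the phosphatase that activates Cdk1, had intervals of -0.20 to 0.11 and -0.18 to 0.17.

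Of 5 genes of the chromosomal passenger complex 2 fell and 3 did not pass. The survivin subunit Birc5 was 7.39 to 7.74 (median 7.50) in WT, 7.17, 7.25 and 7.00 in KO, and 7.35, 7.41 and 7.52 in KI testes. No KO array reached the WT range, and the level was 1.31-fold lower (-0.39, SE 0.09, adjusted p = 0.0364). The borealin subunit Cdca8 was 7.89 to 8.11 (median 8.07) in WT, 7.62, 7.69 and 7.72 in KO, and 7.96, 8.15 and 7.96 in KI testes, a fall of 1.28-fold (-0.36, SE 0.07, adjusted p = 0.0318). The kinase of the complex, Aurkb, was 8.19 to 8.45 (median 8.26) in WT, 8.28, 8.35 and 8.50 in KO, and 8.51, 8.10 and 8.32 in KI testes. Its KO and WT values overlapped, and the 95% interval of the difference was -0.13 to 0.29. For the scaffold Incenp it was -0.19 to 0.14. Aurkc, the Aurora kinase known from meiotic cells, was 5.74 ± 0.28 (SD, n = 6) in WT and close to the background limit, with an interval of -0.27 to 0.34. Whether Birc5 and Cdca8 differ from Aurkb and Incenp in their change was not tested.

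At the centromere and kinetochore 3 of 10 members fell. Nuf2, which forms the microtubule-binding head of the NDC80 complex together with Ndc80, was 8.96 to 9.57 (median 9.27) in WT, 8.65, 8.78 and 8.68 in KO, and 9.05, 9.33 and 9.28 in KI testes. All KO values were under the lowest WT value, and the fall was 1.45-fold (-0.54, SE 0.12, adjusted p = 0.0353). Ndc80 itself was 9.31 to 9.61 (median 9.49) in WT, 9.23, 9.50 and 9.13 in KO, and 9.52, 9.52 and 9.51 in KI testes. KO 2 lay in the middle of the WT range, and the difference of -0.20 did not pass (adjusted p = 0.185). The inner subunits of the same complex, Spc24 and Spc25, had intervals of -0.32 to 0.13 and -0.12 to 0.21. Cenpn, a reader of the centromeric nucleosome, was 8.95 to 9.15 (median 9.01) in WT, 8.44, 8.77 and 8.34 in KO, and 8.87, 8.91 and 9.17 in KI testes, a fall of 1.43-fold (-0.51, SE 0.10, adjusted p = 0.031). Cenpk, of the constitutive centromere network, was 7.18 to 7.50 (median 7.33) in WT, 6.71, 7.07 and 6.81 in KO, and 7.03, 7.24 and 7.11 in KI testes. Its fall was 1.38-fold (-0.47, SE 0.10, adjusted p = 0.0319), and KI 1 lay below KO 2, so that the KI arrays overlapped both other groups. Cenpa, the histone variant that marks centromeres, had the highest estimate of the members (0.12, interval -0.05 to 0.30, adjusted p = 0.384). The kinetochore motor Cenpe (-0.12), the fibrous corona protein Cenpf (-0.15) and Knstrn (-0.13) did not pass.

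Of 8 spindle motors and spindle proteins, Kif11, Kif15 and Hmmr fell. Kif11, the motor that pushes spindle poles apart, had the tightest values of these in WT and in KO testes, though not in KI testes. It was 9.21 to 9.32 (median 9.28) in WT, 8.99, 8.97 and 8.99 in KO, and 9.19, 9.30 and 9.21 in KI testes, a fall of 1.21-fold (-0.28, SE 0.06, adjusted p = 0.0317). Kif15, which can take over part of the work of Kif11, was 7.92 to 8.16 (median 8.06) in WT, 7.49, 7.80 and 7.48 in KO, and 7.98, 7.98 and 8.04 in KI testes, and fell 1.37-fold (-0.46, SE 0.08, adjusted p = 0.0295). Both motors separated KO from WT without overlap. Hmmr, a spindle protein that helps to position Tpx2, was 7.10 to 7.24 (median 7.16) in WT, 6.74, 7.00 and 6.75 in KO, and 7.10, 7.12 and 7.15 in KI testes (-0.34, SE 0.07, adjusted p = 0.032). Kif2c, a microtubule depolymerase, was 8.98 to 9.18 (median 9.14) in WT, 8.72, 8.89 and 8.94 in KO, and 9.19, 9.07 and 9.15 in KI testes. It too was lower in each KO array than in any WT array, with an adjusted p of 0.0572. Tpx2, which activates Aurka at the spindle, was 9.15 to 9.33 (median 9.25) in WT, 9.02, 9.22 and 8.98 in KO, and 9.22, 9.26 and 9.34 in KI testes (-0.17, adjusted p = 0.165). Nusap1 (-0.22), the chromokinesin Kif4 (-0.08) and Kif18a (-0.07), a motor that limits chromosome oscillation, did not pass.

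Ect2, Prc1 and Kif20b fell among the 7 genes of the central spindle and cytokinesis. Ect2, the exchange factor that activates RhoA at the cleavage furrow, was 10.60 to 10.75 (median 10.65) in WT, 10.06, 10.39 and 10.21 in KO, and 10.44, 10.56 and 10.57 in KI testes. Its fall in KO testes was 1.36-fold (-0.45, SE 0.08, adjusted p = 0.0275). Ect2 was also the single member whose 3 KI arrays all lay below the WT range, with a KI difference of -0.15 (adjusted p = 0.976). Prc1, which bundles the microtubules of the midzone, was 9.15 to 9.52 (median 9.34) in WT, 8.83, 9.00 and 8.82 in KO, and 9.23, 9.35 and 9.22 in KI testes (-0.45, SE 0.10, adjusted p = 0.0365). Kif20b was 8.64 to 8.89 (median 8.82) in WT, 8.55, 8.54 and 8.49 in KO, and 8.74, 8.71 and 8.69 in KI testes (-0.26, SE 0.07, adjusted p = 0.0435). Of these 3 genes the gap between KO and WT arrays was smallest for Kif20b. Kif20a, a motor that carries the passenger complex to the midzone, was 9.47 to 9.82 (median 9.65) in WT, 9.31, 9.46 and 9.34 in KO, and 9.55, 9.59 and 9.64 in KI testes, with an adjusted p of 0.0678. The centralspindlin motor Kif23 (-0.23) and the furrow protein Anln (-0.20) were likewise lower in every KO array than in any WT array without passing, and Racgap1, the partner of Kif23, was not separated (-0.07, interval -0.23 to 0.09).

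All 5 measured genes of chromosome structure were lower in each KO array than in every WT array (4.59% of all genes), and 3 passed (2.34% of all genes fell). Smc4 was 10.41 to 10.90 (median 10.72) in WT, 9.90, 10.33 and 9.77 in KO, and 10.43, 10.63 and 10.45 in KI testes, which gave the largest estimate of the 48 members (-0.67, SE 0.14, adjusted p = 0.0318). Smc2, which pairs with Smc4 in condensin, was 8.65 to 8.85 (median 8.78) in WT, 8.55, 8.63 and 8.54 in KO, and 8.83, 8.69 and 8.79 in KI testes (-0.20, adjusted p = 0.0877). Ncaph, the kleisin of condensin I, was 8.12 to 8.66 (median 8.34) in WT, 7.92, 8.00 and 8.01 in KO, and 8.22, 8.28 and 8.27 in KI testes (-0.37, adjusted p = 0.0643). Smc2 thus lay outside the WT range by a small margin, while Ncaph had a wide WT spread (SD 0.21, n = 6). Top2a, the topoisomerase that untangles sister chromatids, was 9.87 to 10.20 (median 10.04) in WT, 9.51, 9.71 and 9.51 in KO, and 10.03, 10.02 and 10.10 in KI testes. It had the smallest p of the members (1.39-fold lower, -0.48, SE 0.08, adjusted p = 0.0264). Mki67, which coats mitotic chromosomes and is the source of the Ki-67 antigen, was 10.16 to 10.30 (median 10.25) in WT, 9.82, 10.02 and 9.99 in KO, and 10.25, 10.18 and 10.25 in KI testes (-0.29, SE 0.06, adjusted p = 0.0333).

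**Figure D2:**
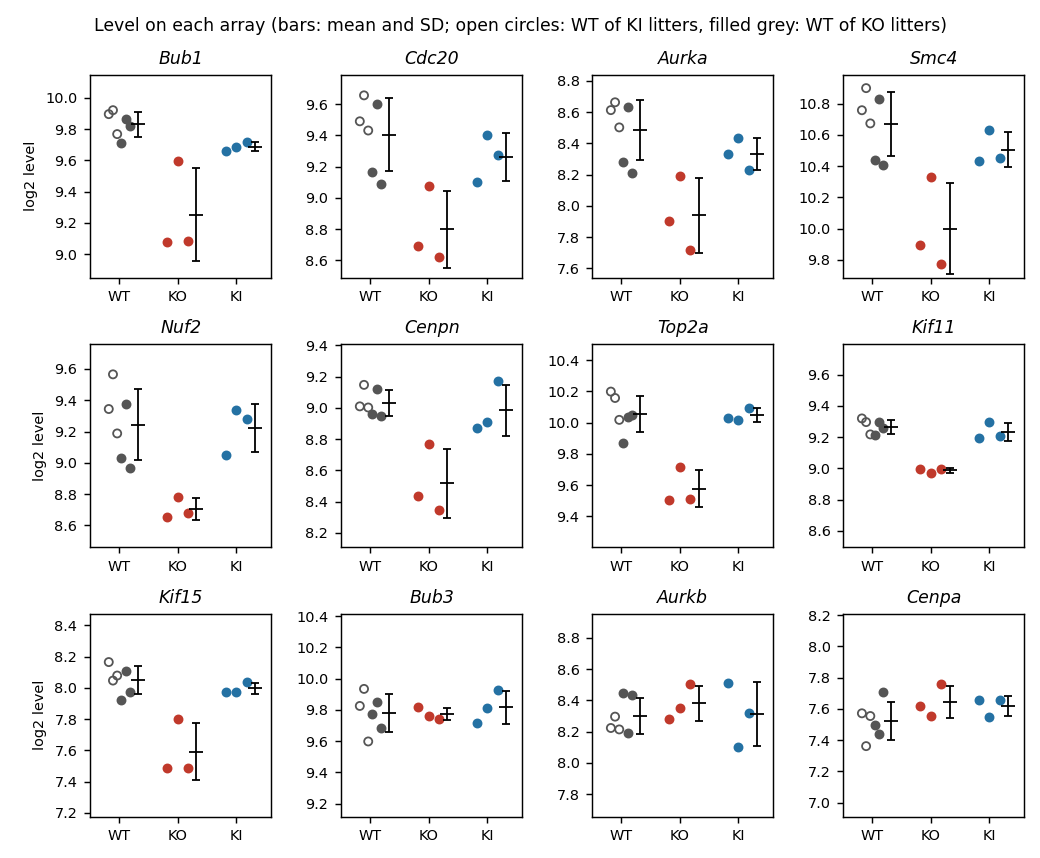
Log2 level of 12 genes on each array in WT (n = 6; open circles are WT of KI litters), KO (n = 3) and KI (n = 3) testes, with the mean and SD beside the points; each panel spans the same height on the log2 scale. For Bub1, Smc4, Cenpn and Kif15 the KO 2 point sits above the other KO points, for Kif11 the KO points coincide near 8.99, and for Bub3, Aurkb and Cenpa the groups overlap.

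Transcription of many G2 and M phase genes is known to pass through the cell cycle genes homology region (CHR), a short promoter element bound by the MuvB complex with B-MYB and FOXM1, often near CCAAT boxes bound by NF-Y. RefSeq promoter windows on GRCm38.p6, from 250 bases before to 50 after an annotated start, were matched by symbol for 41 of the 49 genes, and none was matched for Cdc25c, Foxm1, Aurkb, Incenp, Spc24, Tpx2, Kif20a and Smc4. The CHR was searched as TTTGAA and the CCAAT box as CCAAT, each on both strands. A match of one can share bases with a match of the other, as it does in Cdca8. A gene with several annotated starts was counted where any of its windows held the motif, whereas the share over the genome is a share of single windows. TTTGAA was found in the windows of 29 of 41 genes (70.7%), and in 17.9% of all 32851 windows. Within 50 bases of the start it was found for 27 of 41 genes (65.9%), and in 4.94% of all windows. CCAAT was found for 28 genes (68.3%), against 37.4% of all windows, and both motifs for 24 (58.5%), against 6.95%. The windows of the 6 genes below are shown because these genes had the smallest p among those that fell and hold the element. Each runs 5′ to 3′ on the gene's strand from 150 bases before the start to 24 after it, and TTTGAA or its complement TTCAAA is in capitals. For Ect2, which has several annotated starts, the window with the match nearest its start is given.
Top2a (chr11:99024166-99024339, minus strand): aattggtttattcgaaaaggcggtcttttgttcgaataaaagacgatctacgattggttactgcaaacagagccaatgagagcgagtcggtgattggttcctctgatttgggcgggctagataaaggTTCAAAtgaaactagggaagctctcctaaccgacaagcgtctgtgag
Ect2 (chr3:27153831-27154004, minus strand): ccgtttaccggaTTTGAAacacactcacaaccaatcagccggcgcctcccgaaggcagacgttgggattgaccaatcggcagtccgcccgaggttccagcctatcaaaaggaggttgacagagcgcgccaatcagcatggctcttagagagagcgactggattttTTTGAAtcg
Kif15 (chr9:122950931-122951104, plus strand): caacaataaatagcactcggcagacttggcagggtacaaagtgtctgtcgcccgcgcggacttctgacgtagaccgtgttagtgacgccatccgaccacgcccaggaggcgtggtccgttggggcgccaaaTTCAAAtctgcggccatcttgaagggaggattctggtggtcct
Cenpn (chr8:116921590-116921763, plus strand): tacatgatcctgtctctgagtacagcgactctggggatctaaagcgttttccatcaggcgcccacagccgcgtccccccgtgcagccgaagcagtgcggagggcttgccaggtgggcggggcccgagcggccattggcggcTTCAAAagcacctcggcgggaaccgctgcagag
Kif11 (chr19:37376232-37376405, plus strand): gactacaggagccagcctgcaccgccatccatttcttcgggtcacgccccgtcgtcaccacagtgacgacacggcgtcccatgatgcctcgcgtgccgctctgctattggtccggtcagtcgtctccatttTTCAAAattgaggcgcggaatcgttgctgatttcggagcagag
Cdca8 (chr4:124936894-124937067, minus strand): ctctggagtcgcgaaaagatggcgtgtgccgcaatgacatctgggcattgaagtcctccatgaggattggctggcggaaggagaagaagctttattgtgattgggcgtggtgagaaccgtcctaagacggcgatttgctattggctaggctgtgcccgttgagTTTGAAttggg

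The element was common among the members whether or not they fell. Of the 16 genes with a window that fell in KO testes 12 held TTTGAA, and of the 24 that did not pass 16 did. The median log2 difference between KO and WT was -0.25 for the genes that hold it and -0.17 for those that do not, a description over genes with no test. For a match within 50 bases of the start these medians were -0.25 and -0.24. Bub3, Racgap1, Spc25 and Cenpa, which hold the element, were among the members that overlapped WT. Nuf2, Birc5 and Cenpk fell and have no TTTGAA in these windows. With the variant TTCGAA counted as well, 30 of 41 genes held it, Bub1 among them. A match of letters does not show a site in use.

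**Figure D3:**
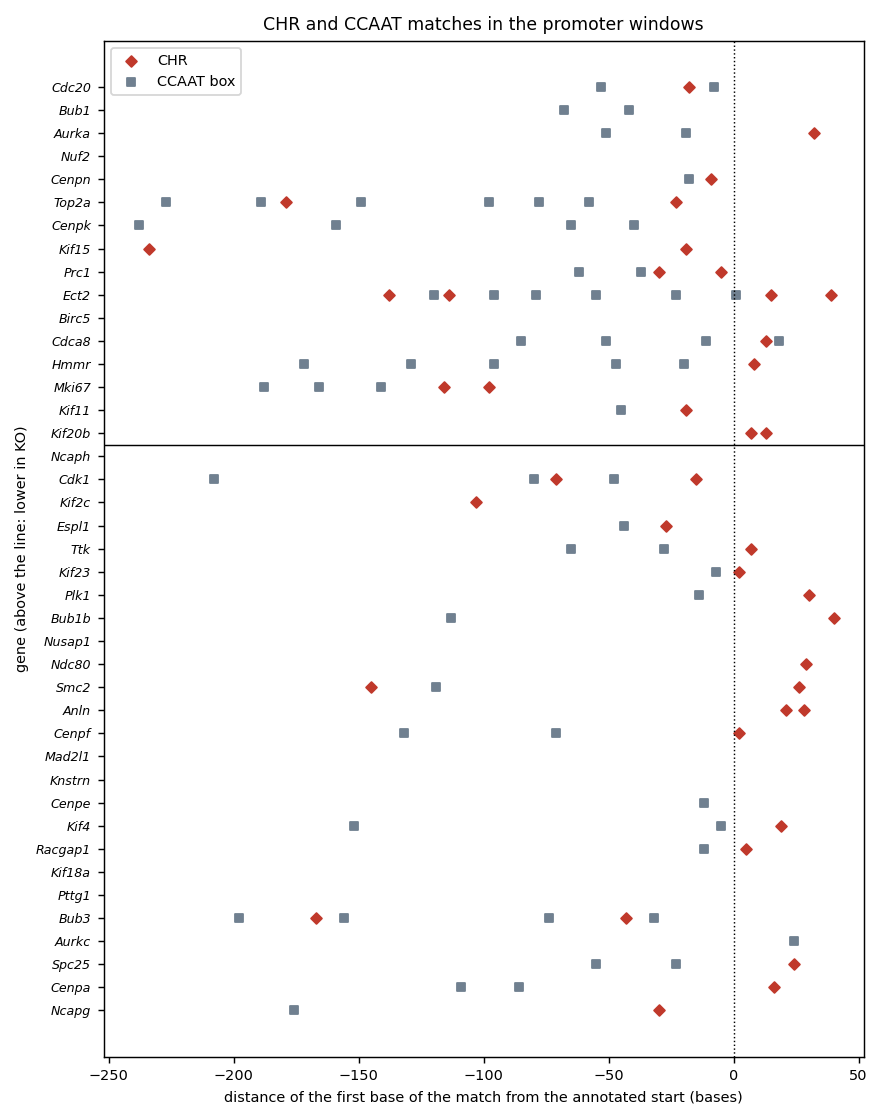
Position of TTTGAA (CHR, red diamonds) and CCAAT (grey squares) matches in the promoter windows of 41 genes, as the distance in bases from the annotated start (dotted line); genes above the solid line fell in KO testes, Ncapg at the bottom was not measured, and genes with several annotated starts show the matches of each. CHR matches gather within 50 bases of the start both above and below the line.

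In KI testes no member passed against the 6 WT testes (limma, 0% of all genes), and none had an unadjusted p under 0.05, where 2.91% of all genes were lower and 2.33% higher. The median difference of the 48 members was -0.02, beside -0.00108 over all genes, and 33 differences were below 0, as 50.4% of all genes' were. For 47 members the 95% interval of the KI difference lay within 0.5 of 0, and for Aurkc it reached 0.56. All 3 KI arrays were below all WT arrays for 1 member, Ect2, beside 1.31% of all genes, and above them for none, beside 1.79%. Both mutants were compared with the same WT arrays, so their values are set side by side here without a test of likeness. For the 17 genes that fell in KO testes the KI differences ran from -0.20 (Cenpk) to -0.01 (Mki67), and the bounds of their intervals from -0.46 to 0.24. Smc4, Cdc20, Aurka and Bub1 differed by -0.16, -0.14, -0.15 and -0.14 in KI, against -0.67, -0.61, -0.55 and -0.58 in KO testes. For Top2a the KI and WT means were 10.05 and 10.06.

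**Figure D4:**
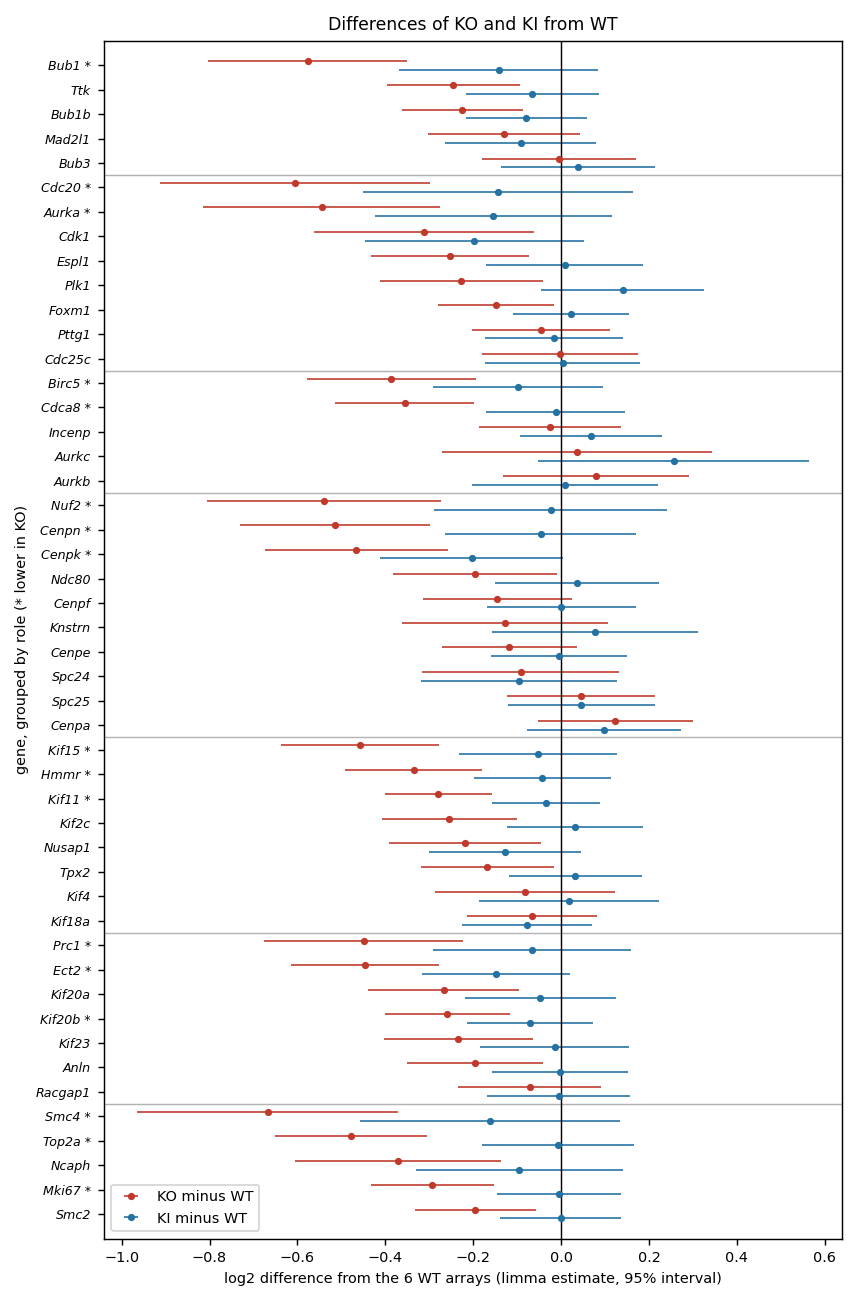
Log2 difference of KO (red) and KI (blue) testes from the 6 WT testes for 48 genes grouped by role, as the limma estimate with its 95% interval; asterisks mark genes lower in KO testes. KO estimates reach -0.67 for Smc4, while KI estimates stay between -0.20 and 0.26, with intervals that include 0.

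Set against each other, KI testes were above KO testes for most members, but none passed (limma, 0% of all genes; smallest adjusted p = 0.133, Top2a and Kif15). At an unadjusted p under 0.05, 29 of 48 members were higher in KI testes, beside 7.16% of all genes, and none was lower, beside 10.8%. All 3 KO arrays lay below all 3 KI arrays for 29 members, as for 9.56% of all genes. The median difference of KI minus KO was 0.21, beside -0.05 over all genes, and 4 members had a difference below 0, as 60.0% of all genes did. It was 0.52 for Nuf2, 0.47 for Top2a and Cenpn and 0.37 for Plk1. Without KO 2, 7 members were higher in KI than in KO testes, the most with any 1 array left out. The share of all genes was not counted for that fit. For KO against WT, leaving out KO 2 took the genes that fell from 520 to 948 and those that rose from 558 to 1375. This comparison shares its KO arrays with that of KO against WT and is not a separate observation of them.

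Compared within litters, 42 of 48 members had a KO difference below 0, as 43.0% of all genes did. Against their own 3 littermates, KO testes had no member past the threshold (limma, where 0.00451% of all genes fell and 0.00451% rose; smallest adjusted p = 0.155), with 25 members lower at an unadjusted p under 0.05 (6.47% of all genes) and none higher (9.22%). The median of the members was -0.21, and Smc4, Bub1, Cenpn and Ect2 differed by -0.56, -0.54, -0.49 and -0.44. Without KO 2, 9 members fell, the most with any 1 array left out, and the share of all genes was not counted for that fit. KI testes against their own littermates also had no member past the threshold (0% of all genes), and 1 member, Cdk1 (-0.33), was lower at an unadjusted p under 0.05, beside 2.06% of all genes. No member was higher by that measure, beside 2.44%. The test of whether the mutants differ from their own controls by different amounts passed for no member (0% of all genes; smallest adjusted p = 0.847). At an unadjusted p under 0.05 it was positive for 10 members, beside 2.24% of all genes, and negative for none, beside 3.59%. The median of that difference was 0.16, with 0.42 for Cenpn and 0.33 for Top2a, and it was below 0 for 4 members, as for 53.4% of all genes. WT testes of KI litters did not pass against WT testes of KO litters for any member (0% of all genes), and at an unadjusted p under 0.05 Cdk1 alone was higher (0.26), beside 1.94% of all genes, and none was lower, beside 3.35%. The difference between the WT groups was below 0 for 9 members, as for 55.0% of all genes.

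Some further genes of the same machinery also fell, and their counts, like those of the cell type markers, stand beside the 2.34% of all genes that fell and 2.52% that rose. Against KO littermates alone no gene of any of these lists fell, and 1 spermatogonial marker rose. Among 54 other spindle, kinetochore and condensin genes there were 11 that fell in KO testes and 43 that missed the threshold. Their median was -0.21. Cenpm, of the constitutive centromere network (-0.61), Knl1, the kinetochore scaffold that docks Bub1 (-0.64), and Kntc1, of the complex that brings dynein to kinetochores (-0.55), were the 3 of smallest p (adjusted p = 0.0295, 0.031 and 0.0311). The 18 subunits and partners of the APC/C had a median of -0.06, and 1 fell: Ube2s, its chain-elongating ubiquitin-conjugating enzyme (-0.57, adjusted p = 0.031). Of 18 genes for MuvB, MYB and E2F family regulators 2 fell, the pocket protein Rbl1 (-0.57, adjusted p = 0.0319) and the MuvB subunit Lin9 (-0.52, adjusted p = 0.0417). The other 16 missed the threshold, and the median of the list was -0.06. Among 7 genes of the meiotic divisions 3 fell, the meiotic cohesin subunit Stag3 (-0.57), the meiotic kinetochore factor Meikin (-0.82, KO level 5.10, under the background limit) and the cyclin Ccnb3 (-0.69), and the remaining 4 missed the threshold.

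Spermatocyte markers were lower on the same arrays as the members. Of 13 such markers 12 fell in KO testes and 1 missed the threshold. Their median was -1.10, and Tex101 (-1.10), Hormad1 (-1.34) and Sycp2 (-0.98) had the smallest p. The mean of these markers was 8.63 to 9.42 in WT, 7.63 to 8.55 in KO and 8.63 to 9.06 in KI arrays. On KO 1, KO 2 and KO 3 it was 7.63, 8.55 and 7.71, and the mean of the 17 members that fell was 8.48, 8.72 and 8.47 on the same arrays. Spermatogonial markers went both ways. Of 12, Gfra1 (0.70) and Ret (0.71), which form the receptor for GDNF, rose and 10 missed the threshold. At an unadjusted p under 0.05, 5 were higher and 3 lower, and 5 of the 12 differences were below 0. Their mean was 7.56 to 7.78 in WT, 7.76 to 7.82 in KO and 7.70 to 7.83 in KI arrays. Nanos2, at a mean of 4.96 over all arrays, was the 1 spermatogonial marker below the background limit. Few somatic markers passed. Of 12 Sertoli cell markers 2 rose, Inhbb (0.38) and Fshr (0.36), and 10 missed the threshold. The mean was 9.63 to 9.83 in WT, 9.81 to 10.04 in KO and 9.70 to 9.86 in KI arrays. Among 6 Leydig cell markers Hsd3b1 rose (0.63) and 5 missed the threshold, with means of 8.05 to 8.87 in WT, 8.96 to 9.34 in KO and 7.95 to 8.71 in KI arrays. Cald1 rose (0.31) among 7 peritubular and smooth muscle markers and 6 missed the threshold, with means of 8.92 to 9.15 in WT, 9.17 to 9.34 in KO and 9.07 to 9.16 in KI arrays. At an unadjusted p under 0.05, 9 Sertoli, 4 Leydig and 5 peritubular markers were higher (14.4% of all genes) and none was lower (9.82%). The medians of these lists were 0.24, 0.62 and 0.22. The largest Leydig difference, 1.83, was also the largest of all genes and missed the threshold. No endothelial or immune marker was higher or lower by the unadjusted measure. None of the 9 spermatid, 6 endothelial, 7 immune, 2 erythroid and 4 epididymal markers passed. Of these, the background limit was not reached by 6 spermatid, 1 immune, 2 erythroid and 4 epididymal markers. The KO differences of the markers of highest level were, in that order of cell types, those of Odf1 and Acr (0.27 and -0.93), Cdh5 and Kdr (0.31 and 0.20), C1qb and Mrc1 (0.18 and 0.04), Slc4a1 and Epb42 (0.11 and 0.06), and Lcn5 and Lcn8 (0.27 and -0.24). The part of these shifts in cell type markers in the differences of the members was not tested.

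**Figure D5:**
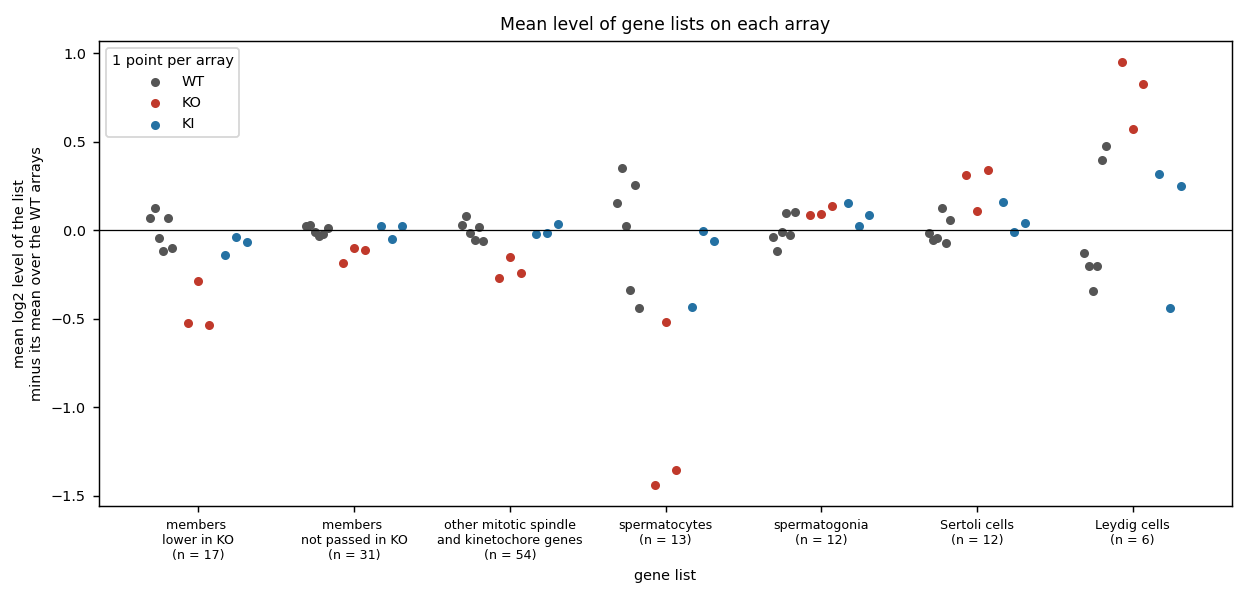
Mean log2 level of gene lists on each array, minus the list's mean over the 6 WT arrays, for WT (grey), KO (red) and KI (blue) testes; the number of genes is under each list. The 17 genes that fell were picked by their KO values, so their separation is given by the choice; spermatocyte markers show the widest spread, with KO 2 near the lowest WT arrays and KO 1 and KO 3 well below.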

How the data were processed

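The authors deposited log2 expression values per transcript cluster for 12 arrays. Per the submitters' processing notes the tools were Affymetrix Expression Console, RMA and Partek 6.6, whose roles are not stated. Which background correction, annotation release or filters were used is also not stated. RMA brings arrays to a common distribution, so differences are relative to the other genes of an array, and small changes of abundant transcripts can be compressed. Of 41345 clusters 23521 had 1 gene symbol in the platform annotation, 1814 several and 16010 none. The single-symbol cluster of highest mean stood for each of 22180 genes.

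Two-sided tests came from lmFit and eBayes of limma 3.58.1 (R 4.3.3), fitted on all 12 arrays with 3 genotype groups, and with the 4 label groups for comparisons within litters and for the difference of the mutant effects. P-values were adjusted over all 22180 genes, with a threshold of 0.05 and no filter on dim genes. The fit was tested on simulated data. The members and lists were chosen with earlier results of these data known. Arrays give no counts, and their number limits the precision: the median 95% interval of a member reached 0.17 to either side for KO or KI against WT. No 2 arrays held the same values.

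Values on every array were given for each member that passed and, for each role, for the member not passed with the smallest p and with the highest level. Other lists were represented by up to 3 members of smallest p that passed, or by the 2 of highest level. Other members, and genes named in comparisons of lists with KI or promoters, were chosen after their values were seen. Alternative settings were a new quantile normalization, median centring, genes above the median level, a trended and robust variance, array quality weights, the mean of a gene's clusters, WT arrays of 1 litter origin, the replicate number as a block, leaving out each array, and the TTCGAA form of the CHR. The labels do not show the replicate numbers to be a pairing. The correlations of the deviations of same-numbered arrays from their group means ran from -0.03 to 0.16. Arrays of unlike number were not compared in this way, so these values cannot decide whether samples were paired. Promoters were searched in Python 3.11.15 with pandas 2.3.3, and figures drawn with matplotlib 3.10.9.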

Additional observations from a re-analysis of the deposited data

Results flagged for a closer look

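In 4 of the 48 members 1 WT array stood apart from the other 5 by Dixon's criterion, which flags about 1 in 20 groups by chance. Plk1 was lowest in WT 5, at 8.45. Espl1 was lowest in WT 6, at 8.27. Incenp was lowest in WT 3, at 7.77. Cenpf was highest in WT 5, at 9.54. None of these 4 genes passed in KO testes.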

How the results depend on the processing

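The count of members lower in KO against WT testes was 17, where 520 of all genes were lower. With the KO littermates as the only controls it was 0 (1 of all genes), and with the KI littermates alone 18 (668). Among genes above the median level it was 27, where 1105 of those genes were lower. With a trended and robust variance it was 25 (894 of all genes). It lay between 0 and 20 with 1 array left out (1 to 948 of all genes). Under the other settings it was between 14 and 19 (435 to 895 of all genes). No direction among the 17 genes turned: over 357 combinations of gene and alternative, 220 kept the call and 137 lost it. Kif20b lost it in 15 of 21 alternatives. With the replicate number as a block, which the labels do not show to be a pairing, 14 members were lower, of which 13 were among the 17. WT 4 to WT 6 share their numbers with no other array. That fit therefore compared KO testes with WT 1 to WT 3 only, the littermates of KI mice. KO against own littermates gave 0, 2 with a trended and robust variance and 0 to 9 with 1 array left out. KI against KO gave 0 members higher, 1 among genes above the median level and 0 to 7 with 1 array left out. For KO against own littermates and KI against KO the shares of all genes were not counted under these alternatives. Their counts there therefore do not show a trait of the members. The other comparisons gave 0 throughout. Leaving out 1 array leaves fewer samples; why WT 1, WT 2, WT 3 and WT 5 end the calls while WT 4 and WT 6 do not was not tested.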

Other observations

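The members also varied among WT testes, and not alike. WT 4 and WT 6, both littermates of KO mice, were the lowest WT arrays for 7 of the 17 genes that fell in KO testes (Aurka, Cdc20, Cenpn, Nuf2, Kif15, Prc1 and Smc4) and for 3 of the 31 that did not pass (Cdk1, Anln and Ncaph). Nuf2, for example, was 8.96 in WT 6 and 9.03 in WT 4, and Cdc20 9.09 and 9.16. The spermatocyte markers had means of 8.73 in WT 4 and 8.63 in WT 6, against 9.09 to 9.42 in the other WT arrays. Kif11 and Mki67 varied little among WT testes (SD 0.04 and 0.06, n = 6), while Cdc20, Nuf2 and Ncaph varied more (SD 0.23, 0.23 and 0.21, n = 6). The share of all genes with WT 4 and WT 6 lowest was not counted, and the 17 genes were picked with these WT values in use. The counts therefore do not show a trait of the genes that fell. These genes were singled out after their values were seen, and no test was made.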
